A study of Mus musculus with 23 samples.

Results

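The genes described here are the DEAD and DEAH box RNA helicases of the mouse, taken as every entry of the deposited expression table named Ddx or Dhx followed by a number, apart from 1 matching entry left out by the rule. This gave 52 genes of the 24506 in the table, 36 with a Ddx and 16 with a Dhx name. The rule used names, not values, but it was set with earlier results of these data known. Expression was measured by RNA sequencing in oocytes at the germinal vesicle (GV) stage, in zygotes and in 2-cell embryos, either intact or with Cxxc1 deleted in the female germ line. The product of Cxxc1 is CFP1, which brings the SETD1 histone methyltransferases to promoters rich in unmethylated CG. There were 23 libraries in 8 groups. GV oocytes, which rest in the first meiotic prophase, came from wild-type females of 3 weeks or of 3 months, from 3-week Cxxc1 fl/fl;Zp3-Cre females and from 3-month Cxxc1 fl/fl;Gdf9-Cre females, with 3 libraries each. Zygotes came from wild-type females or from Cxxc1 fl/fl;Zp3-Cre females (3 libraries each), and 2-cell embryos from wild-type females (2 libraries) or from Cxxc1 fl/fl;Zp3-Cre females (3 libraries). All embryos had wild-type fathers, so embryos of deletion females lack the maternal product but carry a paternal Cxxc1 allele. The Zp3 promoter drives Cre in growing oocytes and the Gdf9 promoter from an earlier follicle stage, so driver and age change together between the GV models. How old the females behind the embryos were is not in the labels, nor do they state that replicates were taken from different animals. The p-values therefore rest on the spread among these libraries alone, and that spread may be technical.

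DEAD and DEAH box proteins use ATP to separate short RNA duplexes or to strip proteins from RNA, and most steps in the life of an RNA employ at least one of them. The spliceosome is driven through its rearrangements by several of them, the nucleolus uses many to fold and cut ribosomal RNA, and others act in mRNA export, storage, translation or decay. Oocytes store mRNA while transcription is silent, and the embryo lives on that store until its own genome becomes active, which in mice occurs largely by the 2-cell stage. Each member was assigned to 1 role from textbook knowledge: 16 genes of ribosome biogenesis, 9 of splicing, 6 of storage, translation and decay, 5 of mRNA export, 5 transcription coregulators, 3 RNA sensors, 2 mitochondrial genes, 1 DNA helicase and 5 others. Ddx26b is a helicase in symbol only, since its product is a relative of an Integrator subunit.

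Levels are FPKM (fragments counted per length of transcript and per size of library) as the authors deposited them. Differences are log2 fold changes of FPKM + 1 with their standard error from a limma model over all 23 libraries, and a gene is called when its p, adjusted by Benjamini-Hochberg over all 13776 genes tested, is under 0.05. Because of the added 1, fold changes of weakly expressed genes come out too small. Dhx58, an RNA sensor, did not reach 1 FPKM in 2 libraries and was not tested, which left 51 members. Pairs of related genes (Ddx19a and Ddx19b, Ddx39 and Ddx39b, Ddx3x and its Y-linked copy, Ddx5 and Ddx17, Ddx21 and Ddx50) may have exchanged reads in the authors' quantification, to a degree that is not known. Their single values are uncertain for that reason.

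The targeted gene checked the labels. Cxxc1 was at 24.0 to 41.5 FPKM in wild-type oocytes and zygotes and at 0.698 to 1.61 in the 9 matching deletion libraries. Wild-type 2-cell embryos held 9.94 and 11.0 FPKM and deletion embryos 1.17, 0.626 and 4.16. FPKM sums ran from 295901 to 420415 per library. The absolute depth is unknown, and relative depth read from the steps of low values ran from 0.509 (a 3-week Zp3-Cre oocyte library, replicate 3) to 1.49 of that of the first wild-type 3-week library. Among the deletion 2-cell embryos, library 3 differed from the others. It held 12333 genes at 1 FPKM or more against 10481 and 10187, and 9 markers of oviduct and stroma summed to 227 FPKM against 9.50 and 9.53. Granulosa markers (14 genes) summed to 114 FPKM in it against 44.35 and 44.8, and expanded cumulus markers (6 genes) to 6.78 against 1.06 and 1.33. Its blood markers (8 genes) summed to 27.4 FPKM against 2.92 and 0.601. In wild-type 2-cell embryos the oviduct and stroma list summed to 37.7 and 29.7 FPKM and the blood list to 10.159 and 10.431. For both lists, wild type thus lay above deletion libraries 1 and 2 and below library 3. The lowest correlation within the deletion 2-cell group across genes was 0.936 for libraries 2 and 3 and 0.942 for library 1. Results for this group were also computed without library 3. Oocyte markers (12 genes, none at 0 throughout a group) summed to 9041 to 11622 FPKM in GV oocytes and to 1031 to 5280 in embryos. Outside deletion 2-cell library 3, blood markers summed to up to 10.6 FPKM. Sperm markers (6 genes) stayed at or under 12.3 in all libraries.

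As a family these genes were well represented at every stage, but a pair of them made up much of the total. Members summed to 1347 ± 17.1 FPKM in wild-type 3-week oocytes (SD, n = 3), 1219 ± 10.1 in wild-type zygotes (n = 3) and 1328 ± 102 in wild-type 2-cell embryos (n = 2). Ddx3x, which unwinds structured leaders of mRNAs for translation, and Ddx19a, which releases exported mRNA at the nuclear pore, together took 29.2 to 31.3% of the members' FPKM in wild-type 3-week oocytes. Their share was 58.5 to 60.03% in wild-type zygotes and 22.1 to 22.4% in wild-type 2-cell embryos, ranges that did not overlap. The total thus hid a wide change below these genes: the median member was at 15.8 FPKM in wild-type 3-week oocytes, 2.70 in wild-type zygotes and 13.1 in wild-type 2-cell embryos. Members at a mean of 1 FPKM or more numbered 49, 39 and 49 of 52 in those groups. In zygotes of deletion females the median was 5.72 FPKM with 43 members at 1 or more, and in their 2-cell embryos 8.78 FPKM with 45.

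**Figure D1:**
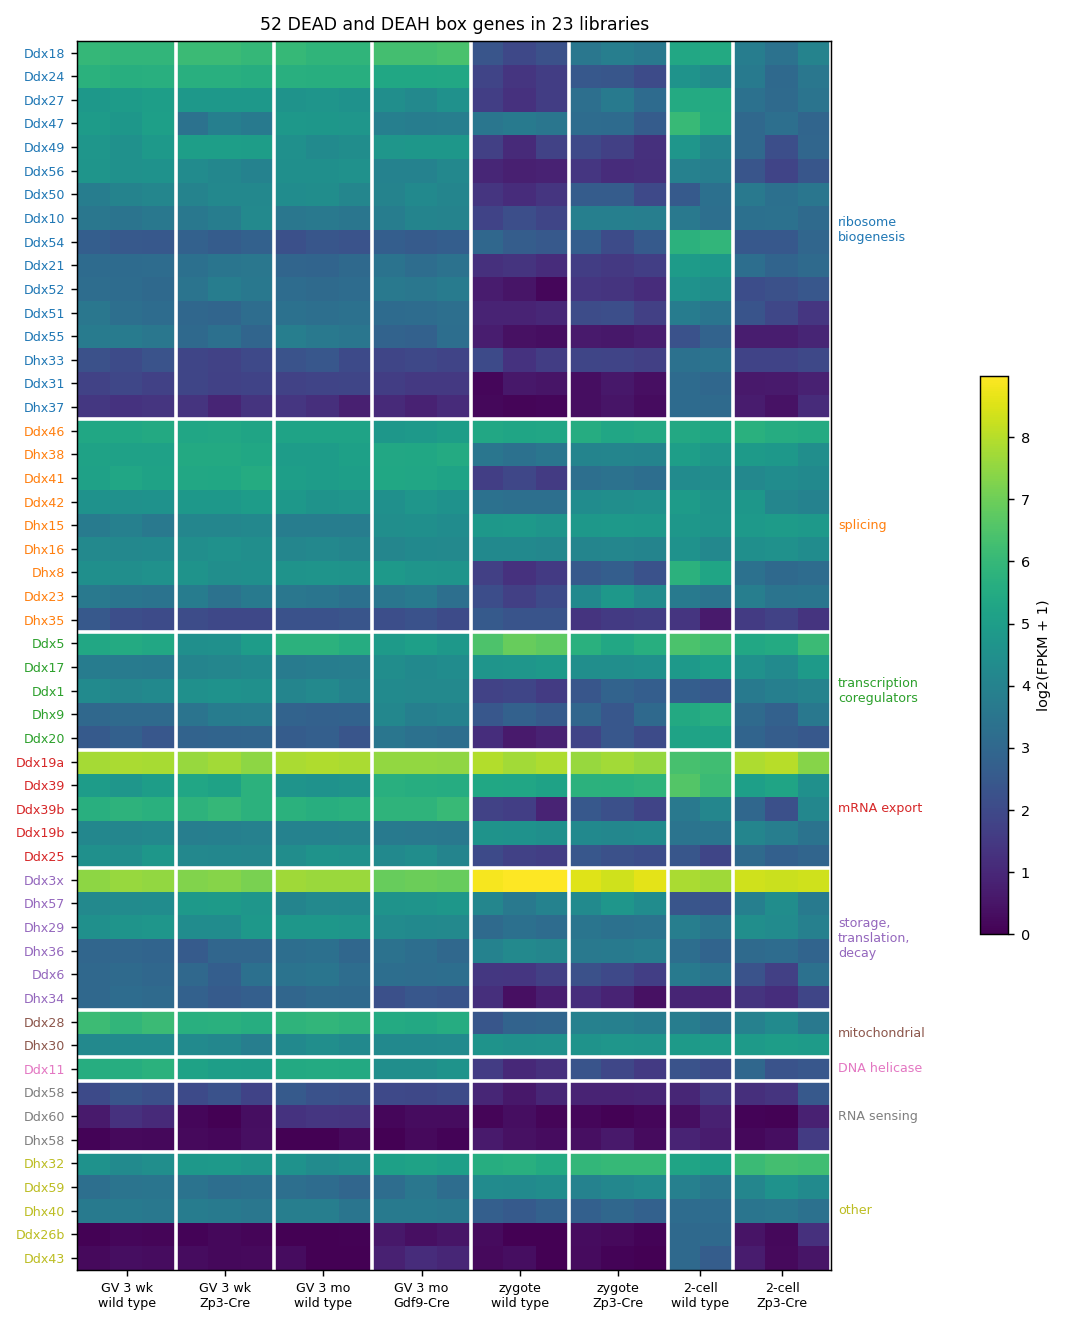
Heat map of log2(FPKM + 1) for each of the 52 members (rows, grouped and coloured by role) in each of the 23 libraries (columns, grouped by stage and genotype). Most ribosome biogenesis rows darken in wild-type zygotes and brighten in wild-type 2-cell embryos. Most are darker in deletion than in wild-type 2-cell embryos, while Ddx3x is brightest in zygotes.

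**Figure D2:**
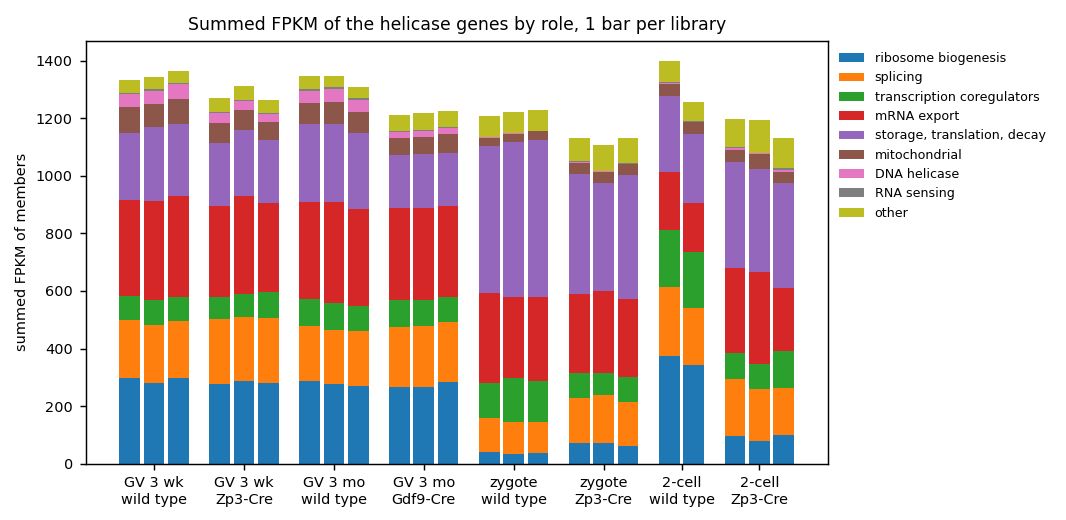
Summed FPKM of the members (vertical axis), 1 bar per library, divided by role. The ribosome biogenesis part has a mean of 292 FPKM in wild-type 3-week oocytes, 37.0 in wild-type zygotes, 360 in wild-type and 91.6 in deletion 2-cell embryos.

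Wild-type development was compared first, since it sets the levels against which deletion is read. From 3-week oocytes to zygotes, 34 members were lower and 10 higher (66.7% and 19.6% of 51), against 50.7% lower and 19.4% higher of all genes tested. Their median log2 fold change was -1.35, against -0.47 for all genes. Median-of-ratios scaling moved the median of all genes by 0.44 and quantile normalization by 0.48, and under them 30 and 28 members were lower and 17 and 17 higher. Of all genes, 4994 of 13715 and 4590 of 13776 were then lower, and 4699 and 5010 higher. The female age of the zygotes is not given, so age and stage cannot be told apart in this comparison, and in bulk RNA fewer cells with a transcript cannot be told apart from less of it per cell.

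Of the 16 ribosome biogenesis helicases, 15 were called lower in zygotes and 0 higher, and their median log2 fold change was -2.54. With median-of-ratios scaling 14 were lower and 1 higher, and with quantile normalization 14 and 2. Of the genes that moved, Dhx33 turned its sign under both scalings (0.13 and 0.50). Ddx18, a nucleolar helicase of the large ribosomal subunit, was at 62.6, 59.3 and 59.7 FPKM in oocytes and at 4.15, 2.88 and 3.67 in zygotes, 17.0-fold lower (log2 fold change -3.76 ± 0.13, adjusted p = 2.14e-15). Ddx24, another nucleolar member, went from 52.8, 47.98 and 49.3 to 2.599, 1.602 and 2.103 FPKM, 23.8-fold lower (log2 fold change -4.05 ± 0.14, adjusted p = 4.31e-15). Ddx56, also of the large subunit, went from 24.7, 22.3 and 22.8 to 0.958, 0.729 and 0.813 FPKM (log2 fold change -3.73 ± 0.13, adjusted p = 4.94e-15). For all 3 genes every zygote library lay below every oocyte library by more than the spread within either group. The exception in the role was Ddx54, which binds nuclear receptors as well as acting in the nucleolus: it stood at 5.47, 4.68 and 4.52 FPKM in oocytes and 7.09, 5.198 and 4.71 in zygotes, with overlapping groups (adjusted p = 0.393), and was called higher only after scaling.

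Single members of other roles fell as far. Ddx11, a DNA helicase of sister chromatid cohesion, stood at 47.2, 47.4 and 51.9 FPKM in oocytes and at 2.01, 1.05 and 1.36 in zygotes (log2 fold change -4.35 ± 0.18, adjusted p = 4.26e-14). Ddx39b, the export helicase UAP56, stood at 49.9, 54.97 and 50.6 FPKM in oocytes, against 2.402, 2.15 and 0.869 in zygotes (log2 fold change -4.28 ± 0.32, adjusted p = 2.06e-10), and the splicing helicase Ddx41 at 34.7, 38.8 and 35.4, against 2.21, 2.77 and 1.92 (log2 fold change -3.504 ± 0.09, adjusted p = 1.33e-16). No zygote library reached any oocyte library in these genes, and Ddx11 had the lowest log2 fold change of all members. Ddx28, a mitochondrial helicase needed for the mitoribosome, went from 70.3, 59.5 and 68.5 to 4.31, 6.33 and 6.604 FPKM (log2 fold change -3.33 ± 0.15, adjusted p = 9.23e-14).

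FPKM are relative to the size of the library, so a higher value in zygotes does not show more copies per cell. Of the 10 members that were higher in zygotes, Ddx3x had the highest level. It rose from 174, 191 and 185 FPKM in oocytes to 469, 501 and 505 in zygotes (log2 fold change 1.42 ± 0.07, adjusted p = 5.45e-13). Ddx5, a coactivator of several transcription factors that also acts in splicing, rose from 41.1, 44.2 and 41.1 to 87.3, 117 and 107 FPKM (log2 fold change 1.27 ± 0.17, adjusted p = 7.82e-07), and its close relative Ddx17 from 12.6, 12.3 and 11.7 to 24.6, 25.4 and 27.02 (log2 fold change 1.01 ± 0.11, adjusted p = 7.71e-08). The groups of these 3 genes did not overlap. Dhx36, which resolves G-quadruplexes in mRNA, rose from 6.76, 6.87 and 6.49 to 14.99, 17.8 and 16.3 FPKM (log2 fold change 1.17 ± 0.13, adjusted p = 1.43e-07). Dhx32, a DEAH box relative of less known function, rose from 22.9, 18.7 and 20.5 to 47.1, 49.8 and 44.1 FPKM (log2 fold change 1.15 ± 0.09, adjusted p = 2.49e-10), and Dhx15, which takes spliceosomes apart, from 12.5, 13.9 and 11.4 to 26.5, 27.01 and 24.9 (log2 fold change 1.002 ± 0.07, adjusted p = 2.11e-10). No zygote library lay inside the oocyte range in these 3 genes. Ddx19a, at 215, 229 and 224, against 246, 214 and 232 FPKM, did not pass the test (adjusted p = 0.759), but was called higher under median-of-ratios scaling (0.95).

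Between zygote and 2-cell stage in wild type the balance was the opposite. Members called higher numbered 34 and members called lower 8 (66.7% and 15.7% of 51), against 44.5% and 24.0% of all genes. The members' median log2 fold change was 1.48, against 0.31 for all genes, and quantile normalization, which moved the latter by -0.50, left 28 higher and 13 lower. Of all 13776 genes, 4491 were higher and 5641 lower under quantile normalization. All 16 ribosome biogenesis helicases were called higher, as they were under either scaling, with a median of 2.85 (2.67 with median-of-ratios scaling and 2.17 with quantile normalization). Their summed FPKM went from 37.0 ± 3.19 (SD, n = 3) to 360 ± 22.4 (n = 2).

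Ddx52, a small-subunit processing helicase, stood at 0.624, 0.409 and 0.113 FPKM in zygotes and at 22.6 and 20.4 in 2-cell embryos (log2 fold change 4.04 ± 0.15, adjusted p = 1.38e-14). Ddx27, of large-subunit assembly, rose from 2.16, 1.45 and 2.098 to 44.4 and 43.5 FPKM (log2 fold change 3.96 ± 0.14, adjusted p = 1.03e-14) and Ddx21, which links polymerase activity to ribosomal RNA processing, from 1.34, 1.52 and 1.22 to 29.6 and 26.9 (log2 fold change 3.63 ± 0.12, adjusted p = 3.65e-15). Both 2-cell libraries lay far above all 3 zygote libraries in each. Ddx20, the gemin 3 subunit of the SMN complex that assembles spliceosomal particles, rose from 1.25, 0.552 and 0.7996 to 36.4 and 34.9 FPKM, the largest rise of any member (log2 fold change 4.31 ± 0.18, adjusted p = 6.88e-14). Dhx8, which releases spliced mRNA from the spliceosome, rose from 2.25, 1.43 and 1.87 to 54.03 and 38.2 FPKM (log2 fold change 4.04 ± 0.15, adjusted p = 8.99e-15), and Ddx18 returned from 4.15, 2.88 and 3.67 to 40.4 and 42.8 (log2 fold change 3.23 ± 0.14, adjusted p = 1.16e-13). The 2-cell groups again lay apart from the zygotes, and for Ddx20, Ddx21, Ddx27, Ddx52 and Dhx8 above the wild-type oocytes too.

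The members that fell at this step were mostly those abundant in zygotes. Ddx3x fell from 469, 501 and 505 to 227 and 208 FPKM (log2 fold change -1.17 ± 0.08, adjusted p = 6.94e-11) and Ddx19a from 246, 214 and 232 to 82.2 and 73.1 (log2 fold change -1.56 ± 0.13, adjusted p = 2.37e-09). Dhx57, a DEAH box protein of less known function grouped here with translation and decay, fell from 16.3, 11.4 and 14.8 to 4.16 and 3.93 FPKM (log2 fold change -1.57 ± 0.17, adjusted p = 8.61e-08). The ranges of the stages did not overlap in these 3 genes. Ddx19b fell to 9.91 and 10.1 FPKM (log2 fold change -1.09 ± 0.13, adjusted p = 1.71e-07), Dhx36 to 8.54 and 6.47 (log2 fold change -1.04 ± 0.15, adjusted p = 3.7e-06) and Ddx59 to 14.03 and 10.6 (log2 fold change -0.62 ± 0.15, adjusted p = 0.000928). The splicing helicase Dhx35 fell as well, from 4.82, 4.03 and 4.05 to 1.61 and 0.574 FPKM (log2 fold change -1.38 ± 0.19, adjusted p = 1.42e-06), and Dhx32 was the last of the 8.

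Ddx46, the branch-site helicase of early spliceosomes, held a similar FPKM throughout wild type, at 40.1, 39.4 and 42.4 in 3-week oocytes, 40.8, 37.5 and 38.7 in zygotes and 41.7 and 37.7 in 2-cell embryos. It passed neither stage test as deposited (adjusted p = 0.561 and 0.831), but it was called higher in zygotes under both scalings (log2 fold change 0.83 and 0.47) and lower in 2-cell embryos under median-of-ratios scaling (-0.41).

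Deletion of Cxxc1 was then compared with wild type at each stage. In 3-week oocytes the effect on the family was small: 10 members were higher and 9 lower after Zp3-Cre deletion (19.6% and 17.6% of 51), against 18.3% and 11.3% of all genes, with a median log2 fold change of -0.02 (all genes 0.09). Under median-of-ratios scaling 3 were higher and 10 lower, against 1528 and 1852 of all 13715 genes. Leaving out single libraries lowered the counts over all genes, from 2524 higher to between 1874 and 2148 and from 1557 lower to between 1221 and 1392. The members' counts moved by more than 1.5 times in some of these runs. The higher count was 6 without any one of the 3 wild-type libraries, 4 without Zp3-Cre library 2 and 5 without Zp3-Cre library 3, and the lower count was 5 without wild-type library 1 and 3 without Zp3-Cre library 3. Zp3-Cre libraries 2 and 3 had the lowest relative depth of all libraries, at 0.610 and 0.509, and oviduct and stroma markers summed to 10.5 to 17.1 FPKM in the Zp3-Cre libraries against 2.201 to 2.76. The part of either in these counts was not tested.

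Ddx47, a nucleolar helicase of small-subunit processing, showed the largest change in these oocytes. Wild-type oocytes held 29.1, 25.9 and 32.3 FPKM and deletion oocytes 9.33, 13.7 and 12.2, 2.48-fold lower (log2 fold change -1.25 ± 0.16, adjusted p = 8.53e-06). Ddx5 fell from 41.1, 44.2 and 41.1 to 21.05, 21.8 and 30.1 FPKM (log2 fold change -0.79 ± 0.17, adjusted p = 0.00135) and the nucleolar helicase Ddx55 from 12.3, 12.5 and 10.9 to 7.37, 8.94 and 6.69 (log2 fold change -0.57 ± 0.16, adjusted p = 0.011). In these 3 genes the genotypes did not overlap. Ddx11 fell to 35.5, 31.8 and 31.04 FPKM (log2 fold change -0.56 ± 0.18, adjusted p = 0.0261), Ddx56 to 19.01, 16.7 and 14.7 (log2 fold change -0.45 ± 0.13, adjusted p = 0.0157) and Ddx28 to 49.7, 51.3 and 47.4 (log2 fold change -0.41 ± 0.15, adjusted p = 0.0439). The calls of Ddx11 and Ddx28 were lost in 6 and 8 of 11 alternatives, with adjusted p up to 0.0871 and 0.136, and those of Ddx55 and Ddx56 in 2 each, with adjusted p up to 0.0681 and 0.082.

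Dhx9, RNA helicase A, which binds double-stranded and structured RNA, rose from 7.13, 7.68 and 7.65 to 10.1, 12.7 and 13.03 FPKM (log2 fold change 0.603 ± 0.18, adjusted p = 0.0144). Ddx39, the close relative of UAP56 in export, rose from 30.05, 25.3 and 30.96 to 39.01, 34.8 and 53.5 (log2 fold change 0.53 ± 0.16, adjusted p = 0.0181), and Dhx57 from 17.5, 19.2 and 19.5 to 27.7, 28.6 and 25.5 (log2 fold change 0.52 ± 0.15, adjusted p = 0.0162). Every deletion library exceeded every wild-type library in the 3 genes. Smaller rises were called for Ddx17, which went to 15.7, 16.2 and 17.98 FPKM (log2 fold change 0.42 ± 0.11, adjusted p = 0.00827), Dhx15, which went to 16.3, 16.3 and 17.1 (log2 fold change 0.38 ± 0.07, adjusted p = 0.000799), and Ddx52, which went to 10.1, 13.1 and 11.2 (log2 fold change 0.47 ± 0.14, adjusted p = 0.0121). Median-of-ratios scaling ended the calls of Ddx39, Ddx52 and Dhx57, which were lost in 3, 5 and 3 of 11 alternatives (adjusted p up to 0.124, 0.197 and 0.084), and that of Dhx9 was lost in 2 (up to 0.0592). Of the pair of abundant members, Ddx3x was lower at 154, 163 and 145 FPKM (log2 fold change -0.25 ± 0.07, adjusted p = 0.011, lost in 2 of 11 alternatives with adjusted p up to 0.0599) and Ddx19a did not pass at 193, 212 and 174 (adjusted p = 0.206).

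In 3-month oocytes after Gdf9-Cre deletion, 15 members were higher and 12 lower (29.4% and 23.5% of 51), against 34.2% and 15.2% of all genes, with a median of -0.09 (all genes 0.20). The scalings moved the median of all genes by -0.18 and -0.20, and 20 members were then lower under either, with 7 and 9 higher. Of all genes, 3099 of 13715 and 3160 of 13776 were then lower, and 2821 and 2826 higher. Markers of granulosa cells (14 genes, none at 0 throughout) summed to 181 to 265 FPKM in these libraries and to 140 to 147 in their wild type, and oviduct and stroma markers to 33.4 to 51.5 against 2.69 to 4.11 (Col1a2, Col3a1 and Vim at 0 in wild type). Their part in the members' differences was not tested.

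The largest rises were in Dhx9 and Ddx39. Dhx9 stood at 6.17, 5.88 and 6.09 FPKM in wild-type and 17.03, 13.5 and 14.8 in deletion oocytes (log2 fold change 1.19 ± 0.18, adjusted p = 2.03e-05), and Ddx39 at 24.05, 22.8 and 24.2, against 50.2, 47.5 and 46.2 (log2 fold change 0.99 ± 0.16, adjusted p = 5.31e-05). Ddx20 rose from 5.09, 5.53 and 4.16 to 10.4, 9.08 and 8.42 FPKM (log2 fold change 0.799 ± 0.16, adjusted p = 0.000454) and Dhx32 from 23.1, 19.2 and 21.4 to 33.1, 35.2 and 32.5 (log2 fold change 0.64 ± 0.09, adjusted p = 6.38e-06). None of the 4 genes had a deletion library within the wild-type range, and their calls stood under either scaling. Dhx15 rose to 20.5, 21.3 and 19.6 FPKM (log2 fold change 0.63 ± 0.07, adjusted p = 1.64e-06) and Ddx17 to 19.9, 18.3 and 19.5 (log2 fold change 0.53 ± 0.11, adjusted p = 0.000647).

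Ddx11 fell in these oocytes from 42.8, 44.05 and 42.7 to 20.7, 20.4 and 23.7 FPKM (log2 fold change -0.97 ± 0.18, adjusted p = 0.00024). Ddx47 fell from 26.9, 26.3 and 25.1 to 13.7, 13.1 and 13.3 FPKM (log2 fold change -0.92 ± 0.16, adjusted p = 9.3e-05) and Ddx3x from 205, 199.7 and 196 to 119, 123 and 119 (log2 fold change -0.73 ± 0.07, adjusted p = 1.51e-07). Wild-type and deletion libraries were separate in all 3. Ddx5 fell to 28.7, 32.6 and 26.3 FPKM (log2 fold change -0.79 ± 0.17, adjusted p = 0.000578), Dhx34, a helicase of nonsense-mediated decay, to 3.56, 4.38 and 4.10 (log2 fold change -0.72 ± 0.20, adjusted p = 0.00669, lost in 1 of 11 alternatives with adjusted p = 0.0869) and Ddx55 to 6.18, 5.91 and 8.56 (log2 fold change -0.69 ± 0.16, adjusted p = 0.00159). Ddx60, an antiviral cofactor of RNA sensing expressed at a low level, fell from 1.46, 1.65 and 1.63 to 0.103, 0.215 and 0.245 FPKM (log2 fold change -1.12 ± 0.19, adjusted p = 8.8e-05). In 3-week oocytes it fell from 0.582, 1.404 and 1.08 to 0.106, 0 and 0.272 FPKM (log2 fold change -0.83 ± 0.19, adjusted p = 0.00288), where 1 deletion library is listed at 0. Ddx58, the sensor RIG-I, did not pass in either model (adjusted p = 0.666 and 0.251), and Dhx58, the sensor LGP2, was at most 0.286 FPKM in GV oocytes.

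A direct test of the difference between the GV models called 2 members, 1 in each direction, against 3.20% (higher) and 1.68% (lower) of all genes. Ddx3x fell further with Gdf9-Cre at 3 months (difference in log2 fold change -0.48, adjusted p = 0.0114), a call that stood under both scalings. Ddx43, a germline DEAD box gene near the detection limit, was at 0.243, 0 and 0 FPKM in 3-month wild type and 0.7596, 1.18 and 0.964 after deletion. Its difference between models was 0.91 (adjusted p = 0.0171), and it was not called under either scaling. For the other 49 tested members the models were not shown to differ, which does not show that they act alike.

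**Figure D3:**
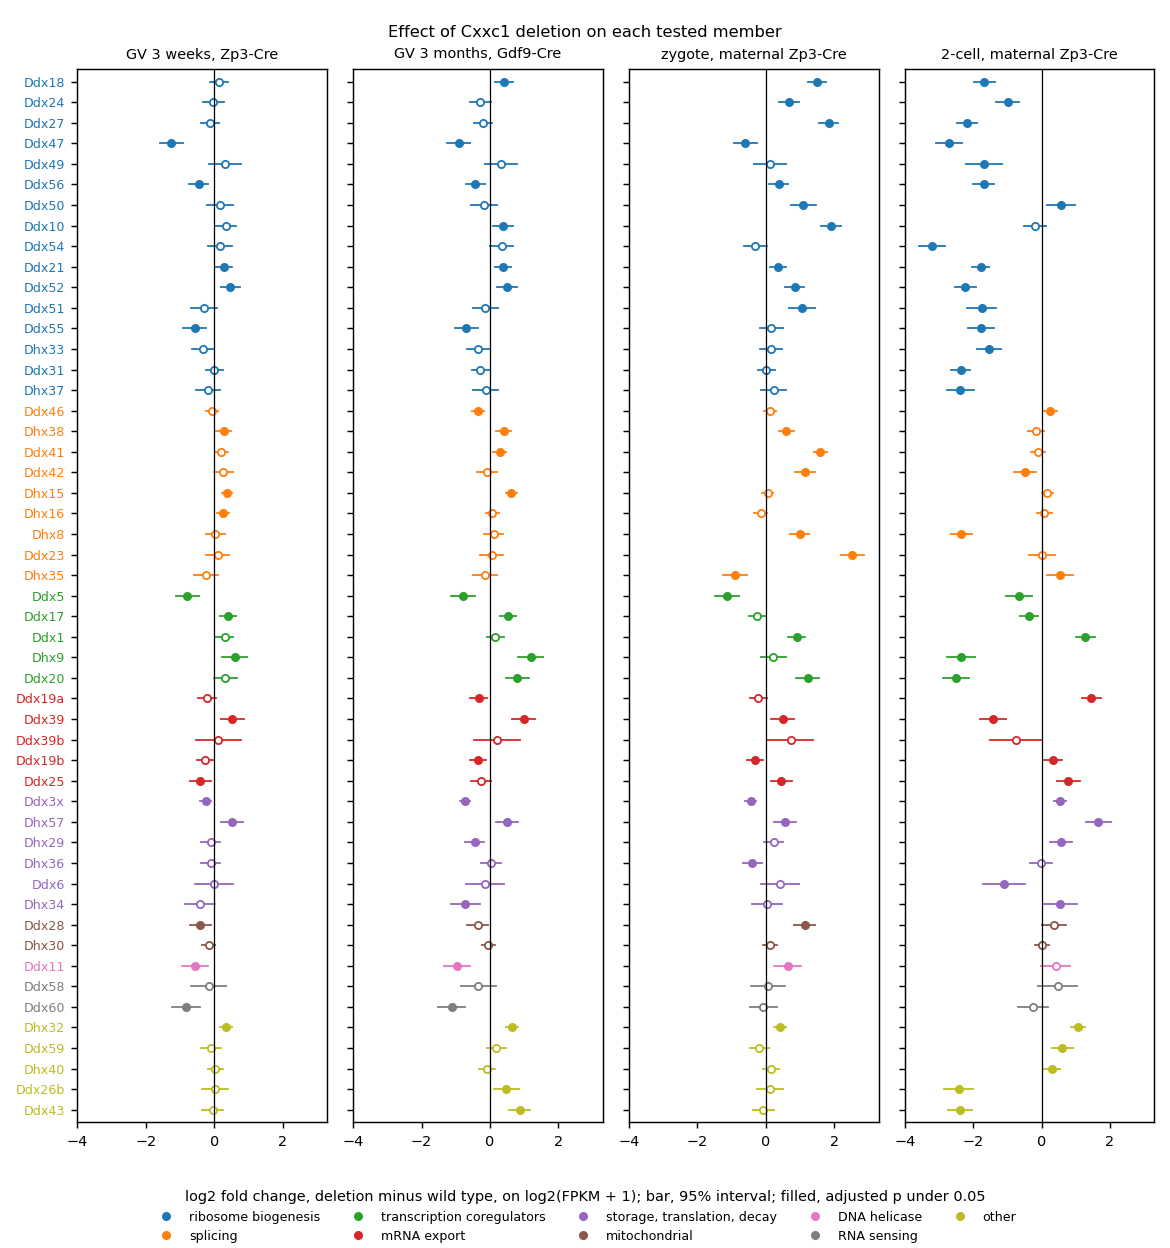
Log2 fold change of deletion against wild type (horizontal axis, on log2(FPKM + 1)) for the 51 tested members (rows, coloured by role) at 4 stages; bars are 95% intervals and filled points are called at an adjusted p under 0.05. The largest changes are -1.25 and 1.19 in the GV oocytes of 3 weeks and 3 months, 2.53 in zygotes and -3.195 in 2-cell embryos; some signs near 0 in zygotes turn with the scaling.

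In zygotes of deletion females the called members were mostly higher as deposited. There were 22 higher and 6 lower members (43.1% and 11.8% of 51), against 35.3% and 11.4% of all genes, with medians of 0.23 and 0.22. Median-of-ratios scaling moved the median of all genes by -0.26 and quantile normalization by -0.25, and the members then stood at 13 higher and 15 lower, and at 13 and 13. All genes then stood at 2800 higher and 4050 lower of 13715, and at 2935 and 3427 of 13776. Granulosa markers summed to 121 to 123 FPKM in deletion zygotes (Foxl2 and Hsd17b1 at 0) and 72.7 to 82.3 in wild type (Amh, Foxl2, Hsd17b1 and Wnt4 at 0), and oocyte markers to 4423 to 5280 and 3403 to 3687. The granulosa list also summed to 142 to 155 FPKM in wild-type 3-week oocytes. From wild-type zygotes to 2-cell embryos its members moved both ways, with log2 fold changes of -2.82 for Cyp19a1 and 4.53 for Amhr2. Whether the sums reflect granulosa cells was not tested, nor was the part of either marker list in the members' differences.

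Ddx23, the U5-associated splicing helicase, had the largest rise. It was at 3.395, 2.25 and 3.01 FPKM in wild-type zygotes and at 18.3, 26.9 and 19.4 after maternal deletion, 7.46-fold higher (log2 fold change 2.53 ± 0.16, adjusted p = 1.12e-10). The wild-type oocytes held 8.92 to 11.5 FPKM, so wild-type zygotes stood below and deletion zygotes above the oocyte level. A second splicing helicase, Ddx41, rose from 2.21, 2.77 and 1.92 to 8.78, 9.51 and 8.43 FPKM (log2 fold change 1.59 ± 0.09, adjusted p = 2.36e-11). Of the 9 splicing members 5 were higher and 1 lower (4 and 4 under median-of-ratios scaling). The lower one was Dhx35, which went from 4.82, 4.03 and 4.05 to 1.57, 1.91 and 2.07 FPKM (log2 fold change -0.896 ± 0.17, adjusted p = 0.000152).

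Ribosome biogenesis members in deletion zygotes were 9 higher and 1 lower of 16, and 6 and 2 under either scaling, where the sign of Ddx21 turned. Ddx10, which processes small-subunit RNA, rose from 2.51, 3.499 and 2.69 to 13.8, 13.7 and 13.3 FPKM (log2 fold change 1.91 ± 0.14, adjusted p = 7.6e-10). Ddx27 rose from 2.16, 1.45 and 2.098 to 8.798, 11.7 and 7.85 (log2 fold change 1.84 ± 0.13, adjusted p = 4.78e-10) and Ddx18 from 4.15, 2.88 and 3.67 to 10.9, 13.3 and 11.5 (log2 fold change 1.501 ± 0.13, adjusted p = 6.28e-09). All deletion libraries were above all wild-type libraries in these genes, yet Ddx18 and Ddx27 lay far below the oocyte level. Summed over the role, FPKM was 68.5 ± 7.15 in deletion and 37.0 ± 3.19 in wild-type zygotes (SD, n = 3), against 282 ± 5.71 in Zp3-Cre oocytes. The mitochondrial Ddx28 rose from 4.31, 6.33 and 6.604 to 14.3, 14.1 and 12.8 FPKM (log2 fold change 1.14 ± 0.15, adjusted p = 2.25e-06).

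The members that fell in deletion zygotes included the most abundant one. Ddx3x fell from 469, 501 and 505 to 372, 323 and 388 FPKM (log2 fold change -0.45 ± 0.07, adjusted p = 2.81e-05), and Ddx5 from 87.3, 117 and 107 to 50.8, 40.4 and 48.96 (log2 fold change -1.13 ± 0.17, adjusted p = 9.81e-06). Ddx47 fell from 10.5, 11.8 and 10.6 to 7.96, 7.91 and 5.102 (log2 fold change -0.602 ± 0.16, adjusted p = 0.00355). In each the genotypes were separate. Dhx36 fell to 11.4, 11.96 and 13.2 FPKM (log2 fold change -0.40 ± 0.13, adjusted p = 0.0192) and Ddx19b to 18.3, 16.8 and 18.1 (log2 fold change -0.33 ± 0.11, adjusted p = 0.0225), calls lost in 2 and 3 of 11 alternatives with adjusted p up to 0.0792 and 0.0761. Ddx3x and Ddx19a together took 48.3 to 50.8% of the members' FPKM in deletion zygotes, below the 58.5 to 60.03% of wild type.

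Whether the step from oocyte to zygote itself differed with genotype was tested as an interaction of stage and Zp3-Cre deletion. It called 19 members higher and 4 lower (37.3% and 7.84% of 51), against 22.4% and 7.01% of all genes. Median-of-ratios scaling gave 13 and 12 members, against 1897 and 2913 of all 13715 genes. Quantile normalization gave 10 and 6 members, against 1858 and 1860 of 13776. The lower count was 2 without any one of wild-type oocyte library 3, Zp3-Cre oocyte library 2 or 3, wild-type zygote library 1 or deletion zygote library 1. The largest differences in log2 fold change were 2.42 for Ddx23 (adjusted p = 1.01e-07), 1.97 for Ddx27 (adjusted p = 8.57e-08) and 1.56 for Ddx10 (adjusted p = 4.21e-06). These 3 genes dropped at this step in wild type, and less or not at all after deletion: Ddx23 went from 12.7, 9.49 and 11.98 to 18.3, 26.9 and 19.4 FPKM in the deletion line.

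In 2-cell embryos of deletion females the family moved in both directions. Called lower were 24 members and called higher 14 (47.1% and 27.5% of 51), against 29.4% and 37.1% of all genes, and the median log2 fold change was -0.26 against 0.16 for all genes. Without deletion library 3 there were 26 lower and 14 higher, with the call of Dhx34 lost (log2 fold change 0.35, adjusted p = 0.188). Of all 13776 genes, 4524 were then lower and 4917 higher, against 4047 and 5112 with every library. Median-of-ratios scaling, which moved the median of all genes by -0.20, gave 29 lower and 6 higher, and without wild-type library 2 the higher count was 8. Of all 13715 genes tested under median-of-ratios scaling, 4923 were lower and 4130 higher. Markers of 2-cell genome activation (13 genes) summed to 487 and 370 FPKM in wild type and to 84.5, 83.0 and 81.9 after deletion, and oocyte markers to 1210 and 1031 against 3760, 3444 and 3658. The deletion embryos thus carried more oocyte transcripts and fewer activation transcripts than the wild type of the same label, and the part of a difference in stage was not tested. Oviduct and stroma markers moved both ways after deletion, with log2 fold changes of -3.03 for Epcam and 2.595 for Dcn. Granulosa markers did so too, with -3.63 for Amhr2 and 2.03 for Cyp19a1. The part of these 2 lists in the members' differences was not tested.

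CFP1 binds unmethylated CG dinucleotides through its CXXC domain, so the promoters of the members were described by their CG content. RefSeq promoters (GRCm38.p6, 250 bases before to 50 after the gene start) were matched for 46 of 52 members, taking the entry with most CG where a gene has several. The motif CG reads the same on both strands. It occurred a median of 24 times per 300 bases in members and 8 times over all 27025 genes with an entry, and at least 15 times in 93.5% of members and 37.1% of all genes. These 27025 genes were not filtered for expression, whereas 51 of the 52 members passed the expression filter. A count over expressed genes alone was not made, so the difference is not shown to be particular to this family. Members lower, higher and not called in deletion 2-cell embryos had medians of 26, 24 and 25. Counts ran from 4 in Ddx26b to 41 in Ddx25. The promoters of the members with the largest fall there (Ddx54), the largest wild-type rise into that stage (Ddx20) and the largest rise in deletion 2-cell embryos (Dhx57) are shown 5′ to 3′ on the gene's strand, chosen after their values were seen, with each CG in capitals: 30 in Ddx54, 34 in Ddx20 and 8 in Dhx57. They lie at chr5:120612880-120613179 (plus strand), chr3:105687522-105687821 (minus strand) and chr17:80290427-80290726 (minus strand).
Ddx54: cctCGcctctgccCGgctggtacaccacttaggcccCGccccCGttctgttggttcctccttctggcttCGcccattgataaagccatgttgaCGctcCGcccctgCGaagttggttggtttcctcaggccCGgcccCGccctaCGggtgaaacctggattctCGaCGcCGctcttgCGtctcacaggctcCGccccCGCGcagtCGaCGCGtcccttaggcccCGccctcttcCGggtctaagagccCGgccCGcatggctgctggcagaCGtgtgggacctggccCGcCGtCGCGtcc
Ddx20: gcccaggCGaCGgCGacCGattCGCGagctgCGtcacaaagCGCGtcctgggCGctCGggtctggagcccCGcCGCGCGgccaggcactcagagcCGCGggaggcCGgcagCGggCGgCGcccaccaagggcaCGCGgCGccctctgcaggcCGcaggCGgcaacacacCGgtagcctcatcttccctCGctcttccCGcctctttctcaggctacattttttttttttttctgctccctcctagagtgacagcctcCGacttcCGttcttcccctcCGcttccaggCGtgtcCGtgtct
Dhx57: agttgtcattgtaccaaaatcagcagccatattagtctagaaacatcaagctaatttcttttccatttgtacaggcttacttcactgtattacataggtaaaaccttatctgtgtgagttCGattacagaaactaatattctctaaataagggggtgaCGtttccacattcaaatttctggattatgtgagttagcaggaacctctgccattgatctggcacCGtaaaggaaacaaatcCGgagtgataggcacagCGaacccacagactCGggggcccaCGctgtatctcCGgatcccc
The low count of Dhx57 is not typical of the members higher in deletion 2-cell embryos: at least 15 CG were found in 92.9% of those 14, in 95.5% of the 22 lower and in 90.0% of the 10 not called. Ddx26b, with the lowest count of all, is among the members called lower.

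Ribosome biogenesis helicases were lower as a group: 14 of 16 fell and 1 rose, and their median log2 fold change was -1.76 (-1.998 and -1.81 under the scalings, and -1.81 without deletion library 3). Ddx54, whose promoter holds 30 CG, showed the largest fall of any member. Wild-type embryos held 53.2 and 59.1 FPKM and deletion embryos 4.59, 4.51 and 6.87, 10.6-fold lower (log2 fold change -3.195 ± 0.18, adjusted p = 1.43e-11). In the 18 oocyte and zygote libraries it ran from 3.104 to 7.09 FPKM, and only the 2 wild-type 2-cell libraries of all 23 lay above 7.09. Ddx47 stood at 64.9 and 45.3 FPKM in wild-type and 7.10, 8.77 and 6.64 in deletion embryos (log2 fold change -2.71 ± 0.18, adjusted p = 7.94e-11), and Dhx37, of small-subunit assembly, at 7.82 and 7.63, against 0.608, 0.371 and 1.15 (log2 fold change -2.38 ± 0.19, adjusted p = 1.64e-09). Ddx18, at 13.02, 9.46 and 15.3 FPKM after deletion, was called lower too (log2 fold change -1.67 ± 0.14, adjusted p = 3.15e-09), as was Ddx24 at 11.6, 7.37 and 10.7 (log2 fold change -0.996 ± 0.16, adjusted p = 1.85e-05). The role summed to 91.6 ± 11.0 FPKM (SD, n = 3) against 360 ± 22.4 (n = 2). Ddx50, a relative of Ddx21, was the member that rose, from 4.83 and 8.92 to 11.3, 9.04 and 10.5 FPKM (log2 fold change 0.56 ± 0.20, adjusted p = 0.0179), but not under median-of-ratios scaling, and Ddx10 did not pass (adjusted p = 0.299).

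Of the 5 members assigned to the role of transcription coregulator, 4 were lower and 1 higher, and several have other functions as well. Ddx20 stood at 36.4 and 34.9 FPKM in wild-type and 6.47, 5.32 and 4.605 in deletion embryos, 6.52-fold lower (log2 fold change -2.51 ± 0.18, adjusted p = 3.26e-10). Dhx9 stood at 42.6 and 47.6, against 7.68, 5.97 and 11.2 (log2 fold change -2.35 ± 0.20, adjusted p = 2.92e-09). Deletion embryos held both within or near the range of wild-type oocytes, 4.16 to 5.77 FPKM for Ddx20 and 5.88 to 7.68 for Dhx9. Ddx5 fell from 85.4 and 74.8 to 41.2, 44.1 and 68.3 FPKM (log2 fold change -0.67 ± 0.18, adjusted p = 0.00341), and deletion library 3, the one that stood apart, was the highest; without it the log2 fold change was -0.89. Ddx17 was lower with overlapping groups (log2 fold change -0.36 ± 0.12, adjusted p = 0.0151, lost in 2 of 10 alternatives with adjusted p up to 0.198). Ddx1, a helicase of tRNA ligation and DNA repair, went against the others, from 5.43 and 4.66 to 12.1, 13.8 and 15.1 FPKM (log2 fold change 1.27 ± 0.13, adjusted p = 5.57e-08).

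Ddx26b and Ddx43 were nearly absent outside wild-type 2-cell embryos. Ddx26b stood at 7.49 and 7.31 FPKM in wild-type and 0.379, 0.152 and 1.39 in deletion embryos (log2 fold change -2.43 ± 0.20, adjusted p = 2.25e-09), and at no more than 0.5005 in oocytes and zygotes. Ddx43 was at 7.32 and 5.33, against 0.596, 0.182 and 0.417 FPKM (log2 fold change -2.39 ± 0.16, adjusted p = 1.68e-10), and at no more than 1.18 before the 2-cell stage. Deletion 2-cell library 3 was the highest of its group for Ddx26b and in the middle for Ddx43. Dhx8, the splicing helicase with the largest change, fell from 54.03 and 38.2 to 9.23, 7.38 and 7.97 FPKM (log2 fold change -2.34 ± 0.15, adjusted p = 4.37e-11). Dhx38, a helicase of the second splicing step, did not pass at 31.4 and 25.1, against 28.5, 26.6 and 20.7 (adjusted p = 0.226), but was called in 2 of 10 alternatives.

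Among the members higher in deletion 2-cell embryos were 4 of 6 of storage, translation and decay, 3 of 5 of export and 3 of 5 of other function. Under median-of-ratios scaling these counts were 2, 2 and 1. Dhx57 stood at 4.16 and 3.93 FPKM in wild-type and 13.7, 20.3 and 11.9 in deletion embryos, 3.78-fold higher (log2 fold change 1.66 ± 0.17, adjusted p = 6.01e-08). Ddx19a stood at 82.2 and 73.1, against 233, 259 and 163 FPKM (log2 fold change 1.46 ± 0.13, adjusted p = 1.05e-08). Both genes were separate between genotypes, and deletion library 3 had the lowest value of its group. Dhx32 stood at 36.6 and 32.7, against 68.2, 78.5 and 74.7 FPKM (log2 fold change 1.07 ± 0.10, adjusted p = 8.03e-09), above any oocyte or zygote library. Ddx25, a testis-known export helicase, went from 4.34 and 2.695 to 7.64, 5.703 and 6.59 (log2 fold change 0.78 ± 0.16, adjusted p = 0.000299), and Ddx59 from 14.03 and 10.6 to 16.6, 22.6 and 18.8 (log2 fold change 0.61 ± 0.15, adjusted p = 0.00128, not called under median-of-ratios scaling with adjusted p = 0.0552). Ddx3x was at 227 and 208, against 321, 308 and 321 FPKM (log2 fold change 0.54 ± 0.08, adjusted p = 6.34e-06), higher here but lower in every earlier deletion comparison, and it was not called under quantile normalization. Ddx6, the helicase of mRNA repression in storage granules, was the member of its role that fell, from 11.8 and 9.63 to 3.92, 2.26 and 9.15 FPKM (log2 fold change -1.09 ± 0.30, adjusted p = 0.00308), with -1.54 without deletion library 3, which lay near wild type. In export, Ddx39 fell from 93.4 and 69.2 to 32.5, 36.6 and 21.7 (log2 fold change -1.41 ± 0.18, adjusted p = 9.27e-07) and Ddx39b did not pass (adjusted p = 0.0669). The mitochondrial Dhx30 was at 28.99 and 29.6, against 28.6, 30.8 and 29.2 FPKM (95% interval of the log2 difference -0.204 to 0.22). Under median-of-ratios scaling it was called lower (-0.26, adjusted p = 0.046).

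**Figure D4:**
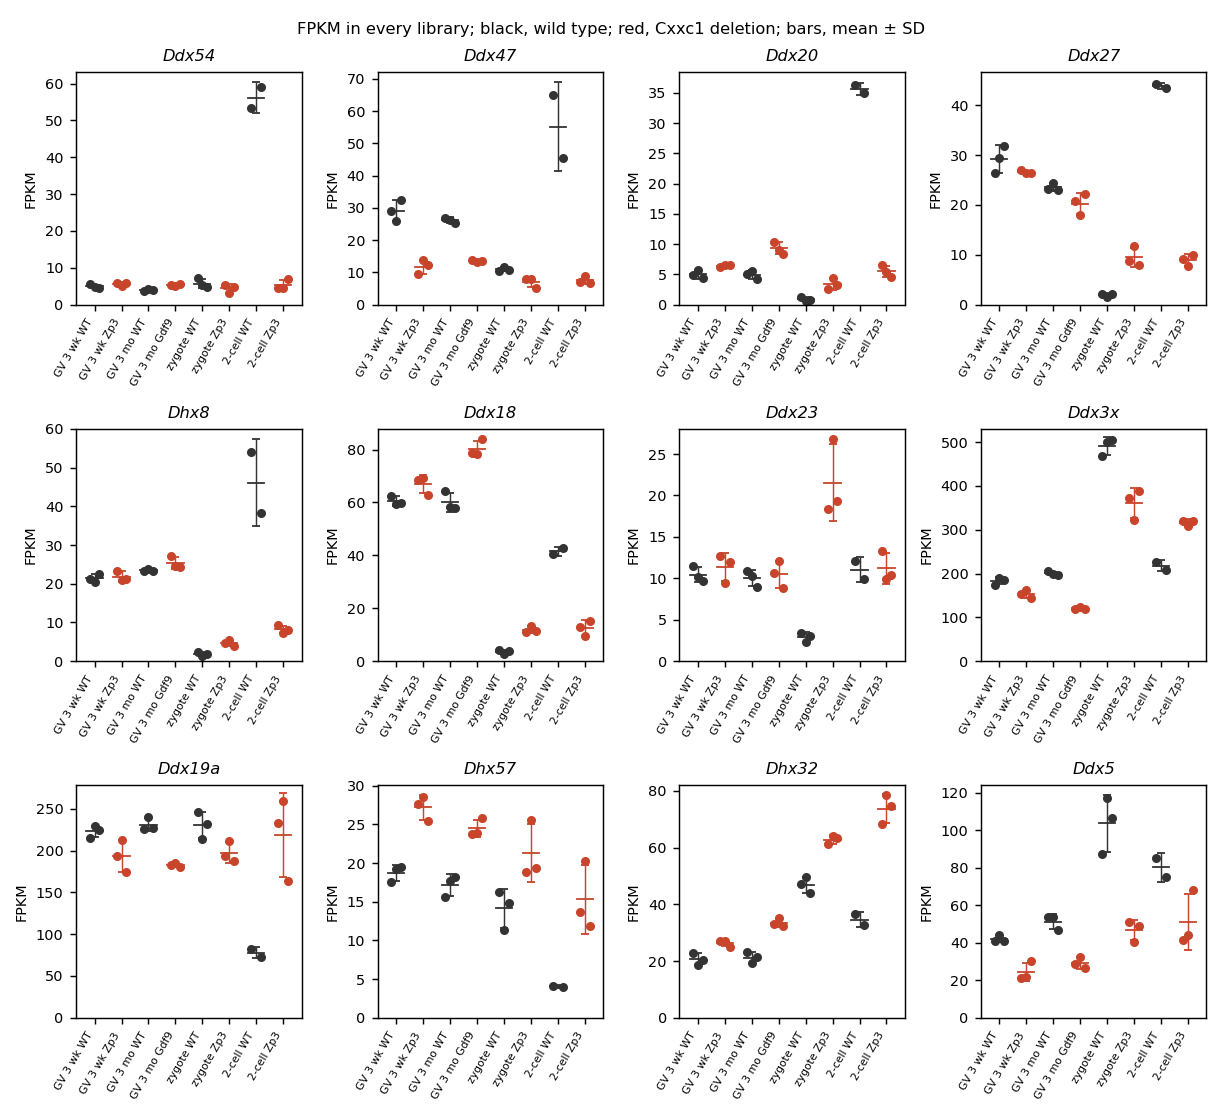
FPKM (vertical axis, from 0) of 12 members in every library, by group along the horizontal axis; points are libraries, bars the mean ± SD, black wild type and red deletion. Ddx54, Ddx47, Ddx20, Ddx27 and Dhx8 peak in wild-type 2-cell embryos but not after deletion, Ddx23 peaks in deletion zygotes, and Ddx19a, Dhx57 and Dhx32 are higher in deletion than in wild-type 2-cell embryos.

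The step from zygote to 2-cell stage differed with genotype for most members: the interaction was negative in 28 and positive in 7 (54.9% and 13.7% of 51), against 32.4% and 21.5% of all genes. Under the scalings 27 and 25 were negative and 16 and 15 positive, and without wild-type 2-cell library 1 the positive count was 11. Of all genes, 4128 of 13715 and 3623 of 13776 were negative under the scalings, and 4184 and 4826 positive. All but Ddx50 of the 16 ribosome biogenesis helicases were negative (15 under each scaling and without deletion library 3). Ddx27 had the largest difference, -4.02 (adjusted p = 4.69e-12). It rose in wild type from 2.16, 1.45 and 2.098 to 44.4 and 43.5 FPKM and stood in the deletion line at 8.798, 11.7 and 7.85 in zygotes and 9.22, 7.65 and 10.01 in 2-cell embryos. Ddx20 differed by -3.74 (adjusted p = 2.21e-10), Dhx8 by -3.34 (adjusted p = 5.69e-11) and Ddx18 by -3.17 (adjusted p = 7.12e-11). Positive differences were led by Ddx19a at 1.68 (adjusted p = 1.57e-07), Dhx35 at 1.44 (adjusted p = 5.98e-05) and Dhx57 at 1.10 (adjusted p = 0.000449). Ddx19a fell in wild type, whereas in the deletion line zygotes held 194, 211 and 187 FPKM and 2-cell embryos 233, 259 and 163.

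Lists of genes that work with these helicases were read the same way in deletion 2-cell embryos, as counts beside the 37.1% higher and 29.4% lower of all genes. G-patch proteins, which switch on DEAH box helicases, were 4 higher and 12 lower of 21, with the largest changes in Gpatch3 (log2 fold change -3.98), Zgpat (-3.66) and Rbm10 (-3.59). Partners of export and the exon junction complex were 6 higher and 8 lower of 17, led by Casc3 (-3.16), Nxf1 (-2.59) and Alyref (-2.26). Storage partners of Ddx6 were 11 higher and 1 lower of 14, led by Zar1 (3.54), Lsm14b (2.11) and Dcp1a (2.03), whereas Ddx6 itself was lower. SMN complex partners of Ddx20 were 3 higher and 3 lower of 8, with Gemin5 at -2.78, Gemin8 at 1.48 and Gemin6 at 1.41. Other RNA helicases outside the DEAD and DEAH names were 4 higher and 9 lower of 17, led by Ythdc2 (1.83), Eif4a3 (-1.68) and Mov10l1 (-1.22), and RNA-sensing partners 1 higher and 3 lower of 8. Adjusted p was at most 0.000999 for all named partners, and these lists were not counted under the scalings.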

How the data were processed

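RNA was sequenced from 23 libraries of mouse GV oocytes, zygotes and 2-cell embryos, prepared with the RNeasy micro and NEBNext Ultra kits per the labels' protocols. CASAVA 1.4, TopHat2 2.0.12, Cufflinks 2.2.1 and SAMtools are named in the submitters' processing notes. These notes name both mm10 and mm9 with no role, and no coordinates were taken from the table. The authors deposited 1 table of FPKM values, 24506 genes by 23 libraries. Whether counting used strand is not given in the sources used here. FPKM carry no counts, so absolute depth, counting intervals and the share of unassigned reads are unknown. Bisulfite data were not analysed here.

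The deposited FPKM were transformed to log2(FPKM + 1) and fitted with limma 3.58.1 in R 4.3.3 (8 group means, 15 residual degrees of freedom, trended empirical Bayes variances). Genes needed 1 FPKM in at least 2 libraries, and p-values were Benjamini-Hochberg adjusted over all 13776 tested. Each adjusted p in the text comes from this limma model, a value after ± beside a log2 fold change is its standard error, and intervals are 95%. The script was tested on simulated data with 200 changed genes. Alternatives were a pseudocount of 0.1, no filter, median-of-ratios scaling, quantile normalization, the replicate number as a block and leaving out each library. Values per library are given for the 6 called members that rose most and the 6 that fell most in each comparison, among those with a mean of at least 5 FPKM in either group, and for abundant members of each role. From each partner list up to 3 called genes are named. Further members are named to account for their role, chosen after their values were seen. The members, roles and lists were chosen with earlier results of these data known. The excluded entry is not reported here. Promoter sequences are from RefSeq (GRCm38.p6).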

Additional observations from a re-analysis of the deposited data

Results flagged for a closer look

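In 30 results on named members the effect of deletion was not the same in both stages, or in both GV models, by the interaction term of the limma model. No explanation was weighed, and each value is a difference of log2 fold changes.

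Between 3-week oocyte and zygote the effect was more positive in zygotes for Ddx23 (2.42), Ddx27 (1.97), Ddx10 (1.56), Ddx28 (1.55), Ddx41 (1.39), Ddx18 (1.36), Ddx11 (1.20), Ddx56 (0.83), Ddx24 (0.71) and Ddx47 (0.65). It was more negative in zygotes for Ddx17 (-0.68) and Dhx15 (-0.32). Ddx24 and Ddx47 were not called under either scaling, and Ddx47 lost its call in 10 of 17 alternatives in all (adjusted p up to 0.648). Dhx15 lost its call in 7 of 17, each of them a library left out, with adjusted p up to 0.0909.

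Between zygote and 2-cell embryo the effect was more negative in 2-cell embryos for Ddx27 (-4.02), Ddx20 (-3.74), Dhx8 (-3.34), Ddx18 (-3.17), Ddx52 (-3.07), Ddx54 (-2.89), Dhx37 (-2.61), Ddx26b (-2.55), Ddx43 (-2.31), Ddx21 (-2.14) and Ddx47 (-2.11). It was more positive for Ddx19a (1.68), Dhx57 (1.10), Ddx3x (0.99), Ddx59 (0.80), Dhx32 (0.66) and Ddx19b (0.65), of which Ddx3x was not called under quantile normalization.

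Between the GV models the effect on Ddx3x was more negative with Gdf9-Cre at 3 months (-0.48). Driver and age cannot be told apart in it.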

How the results depend on the processing

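Of 260 results on named members, 177 kept their call and direction in every alternative run. Scaling moved most of the others, and the cause was not tested. Members called with median-of-ratios scaling and with quantile normalization were, in 3-week oocytes, 3 and 6 higher; in 3-month oocytes 7 and 9 higher and 20 and 20 lower; in deletion zygotes 13 and 13 higher and 15 and 13 lower. In deletion 2-cell embryos 6 were higher under median-of-ratios scaling. In wild-type zygotes 17 and 17 were higher, and in wild-type 2-cell embryos 13 lower under quantile normalization. For the oocyte-to-zygote interaction 10 were higher (quantile) and 12 lower (median-of-ratios), for the zygote-to-2-cell interaction 16 and 15 higher, and for the GV models 0 and 0 higher. Of all genes, the scalings called 1528 and 1725 higher in 3-week oocytes and 188 and 181 higher between the GV models. Those of the other comparisons are given above. With a pseudocount of 0.1, 5 members were lower in 3-week deletion oocytes, against 1355 of all 13776 genes. Of all genes called in deletion zygotes, 75.6% were higher as deposited, 40.9% with median-of-ratios scaling and 46.1% with quantile normalization.

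Signs turned as follows. In deletion zygotes, median-of-ratios scaling gave -0.093 for Ddx39, -0.48 for Ddx46, -0.185 for Dhx32, -0.46 for Dhx30, -0.016 for Dhx57, -0.022 for Ddx21 and -0.003 for Ddx25, and quantile normalization -0.26 for Dhx30, -0.087 for Ddx21 and -0.076 for Ddx25. In deletion 2-cell embryos median-of-ratios scaling gave -0.024 for Ddx46 and -0.26 for Dhx30. In wild-type zygotes the values with median-of-ratios scaling and with quantile normalization were 0.83 and 0.47 for Ddx46, 0.47 and 0.52 for Dhx57, 0.13 and 0.50 for Dhx33, and 0.30 and 0.63 for Dhx9, with 0.16 for Dhx40 under quantile normalization. In wild-type 2-cell embryos median-of-ratios scaling gave -0.41 for Ddx46 and -0.059 for Dhx30, and quantile normalization -0.059 for Ddx11, -0.11 for Ddx1, -0.30 for Dhx29 and -0.41 for Dhx40.

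Leaving out 1 library at a time gave 4 to 9 members higher and 3 to 7 lower in 3-week deletion oocytes, 12 to 14 and 11 to 13 in 3-month oocytes, 19 to 23 and 4 to 6 in zygotes, and 8 to 14 and 23 to 26 in 2-cell embryos. In wild type it gave 9 to 10 higher and 33 to 34 lower in zygotes, and 34 to 36 and 8 to 9 in 2-cell embryos. The interactions gave 16 to 19 and 2 to 3 (oocyte to zygote), 7 to 11 and 27 to 29 (zygote to 2-cell), and 1 to 1 in each direction for the GV models. A group left with 1 wild-type 2-cell library is assumed to vary like the others. Over all genes, 3-week deletion oocytes then had 1874 to 2148 higher and 1221 to 1392 lower. The 3-month oocytes had 4069 to 4303 and 1798 to 1873, and deletion zygotes 4408 to 4630 and 1388 to 1498. Wild-type zygotes had 2527 to 2575 and 6699 to 6742, and the oocyte-to-zygote interaction 2768 to 3090 and 786 to 904.

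With the replicate number as a block, deletion in 3-week oocytes called 8 members higher and 8 lower, and in zygotes 7 lower. Of all 13776 genes, the block called 2465 higher and 1542 lower in 3-week oocytes and 1561 lower in zygotes. Ddx21, Ddx28 and Dhx38 lost their call in 3-week oocytes and Dhx34 in 2-cell embryos. Deviations of same-numbered libraries correlated at -0.113 to 0.128 (77 pairs) and those of other libraries at -0.158 to 0.13 (154 pairs), so the numbers do not pair the samples. Depth is unknown, and values under about 1 FPKM, as for Ddx26b, Ddx43, Ddx60 and Dhx58, are the least certain.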

Other observations

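In deletion zygotes the partner lists counted next held more higher than lower calls, as did all genes as deposited. The RNA-sensing partners did not share this among their largest called changes, with Rnf135 (log2 fold change -0.74) and Mavs (-0.37) lower and Tbk1 (0.67) higher. Export and exon junction partners were 9 higher and 3 lower of 17, led by Thoc6 (log2 fold change 1.27), Rbm8a (1.22) and Alyref (1.19). G-patch proteins were 8 higher and 1 lower of 21, led by Rbm17 (1.31), Tfip11 (1.22) and Pinx1 (0.96). Storage partners of Ddx6 were 8 higher and 3 lower of 14, led by Ybx2 (1.11), Zar1l (1.03) and Zar1 (0.97), and SMN complex partners of Ddx20 were 5 higher and 0 lower of 8, led by Gemin6 (1.72), Gemin8 (0.87) and Gemin2 (0.77). Of all genes, 35.3% were higher and 11.4% lower, and the share of higher calls depended on scaling.

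Related RNA helicases were 8 higher and 6 lower of 17 in deletion zygotes. The initiation factor helicase Eif4a2 was called lower there (log2 fold change -1.37). Tdrd9, a piRNA pathway helicase, was called lower in 3-week deletion oocytes (-1.65), 3-month deletion oocytes (-1.81) and deletion zygotes (-0.91).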
